A study of Homo sapiens with 6 samples.

Results

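The genes described here, called feedback genes below, are inducible brakes on the ERK pathway and the readout transcript PHLDA1. The brakes are the dual-specificity phosphatases DUSP1, DUSP4, DUSP5, DUSP6 and DUSP7, the Sprouty genes SPRY2 and SPRY4, and the Sprouty-related genes SPRED1 and SPRED2. All members were chosen by gene symbol, and all 10 had a row among the 13696 distinct genes of the deposited table. Expression was measured by poly-A RNA sequencing in hTERT RPE-1 cells, a human retinal pigment epithelial line immortalised with telomerase. In 3 libraries the cells had received 25 nM camptothecin for 1 h and were harvested 24 h after the drug was removed (pre-dose), and 3 libraries came from untreated cells. Camptothecin traps topoisomerase 1 on DNA, and the series asks how cells adapt to a low first dose of such a drug. Separate cultures are not stated for the replicates; the tests therefore measure the spread among these 6 libraries, and that spread may be technical.

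Growth factor receptors signal through RAS, RAF and MEK to the ERK kinases, and active ERK induces transcription of its own inhibitors. The dual-specificity phosphatases remove the activating phosphates from MAP kinases, Sprouty proteins act between the receptors and RAF, and SPRED proteins bring the RAS inactivator neurofibromin to the membrane. PHLDA1, a pleckstrin homology-like protein, belongs with several of these genes to transcripts commonly used as a readout of MEK and ERK activity. In retinal pigment epithelium, as in other epithelia, ERK signalling is known to act in proliferation and wound closure.

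DUSP4 and PHLDA1 stood higher in every pre-dose library than in any untreated one (2 of 10, against 3.36% of the genes tested). The other 8 genes overlapped between the groups. The members were chosen with results of these data known, so such shares are a description. Mean levels were 1.18-fold higher in pre-dose libraries for DUSP4 and 1.17-fold higher for PHLDA1. In limma over all 13616 genes tested, 0 of the 10 genes passed an adjusted p of 0.05, as did 0% of all genes. At an unadjusted p of 0.05, DUSP4 and PHLDA1 (2 of 10, both higher) passed, against 2.06% of all genes, or 1.25% counting only higher ones. These unadjusted calls changed when single libraries were left out: 0 of the 10 genes passed without pre-dose replicate 3, untreated replicate 2 or untreated replicate 3, and 1 passed without pre-dose replicate 2. Over all genes the count of 280 became 95, 116, 121 and 117 without those same libraries. It became 1385 without pre-dose replicate 1 and 611 without untreated replicate 1, with 3 and 2 of the 10 genes passing. Both passed as higher in the authors' deposited table, where 3.05% of genes passed (1.61% as higher). They also passed in a fit of replicates 2 and 3 alone, where 6.36% of genes did (2.89% as higher). That fit has 2 libraries per group and leaves out replicate 1, which stood apart in these data. Both passed as well in a fit with library weights, where 1.39% of genes did (0.793% as higher). Its weights were 0.21 and 0.23 for the replicate 1 libraries, against 1.27 to 2.88 for the others. Both fits thus rest mainly on replicates 2 and 3 and are not separate support. DUSP1, DUSP7, SPRY2, SPRY4, SPRED1 and SPRED2 differed by at most 0.047 on the log2(CPM + 1) scale in the fit of the 6 libraries. Changes on this scale are understated for low genes.

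**Figure D1:**
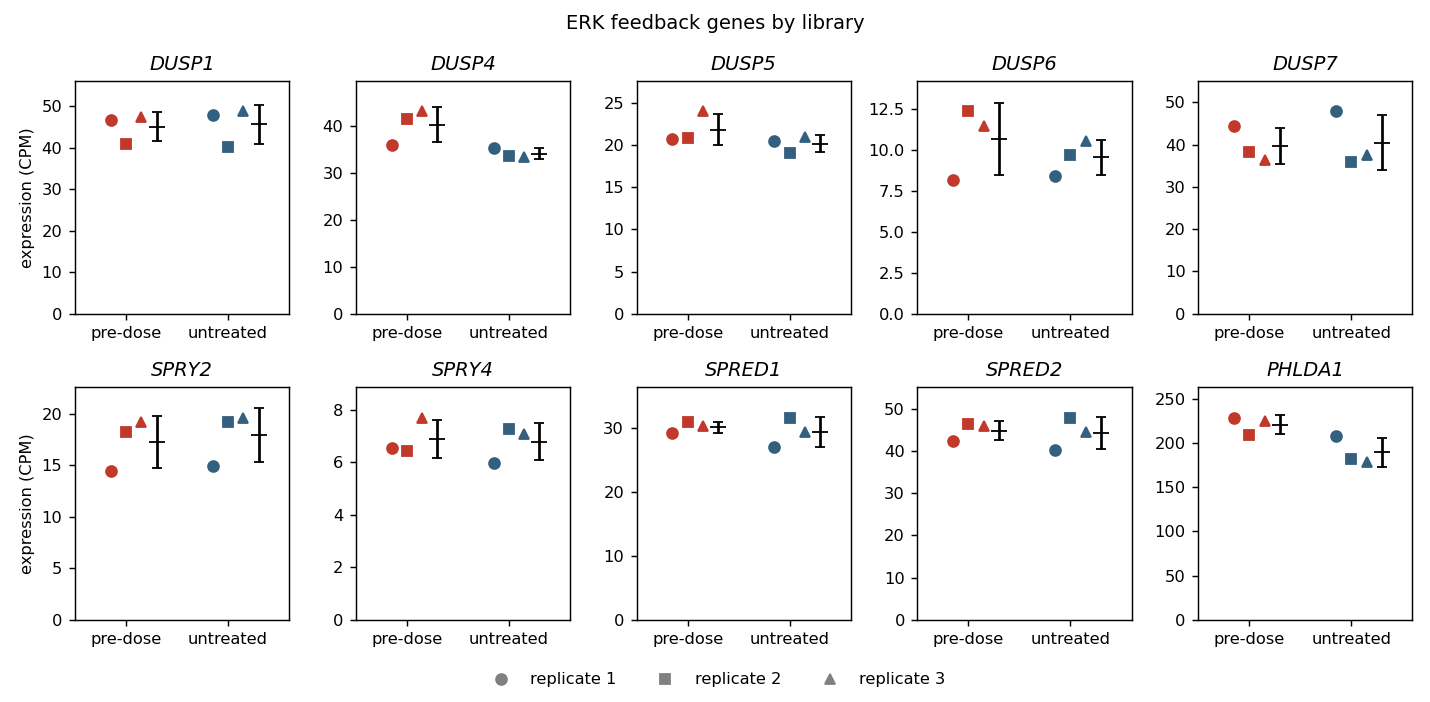
Expression of each gene in CPM (read counts scaled to library size) in the 3 pre-dose and 3 untreated libraries, with symbols for the replicate number; bars give the mean and SD (n = 3). The pre-dose points of DUSP4 (36.1 to 43.2 CPM) and PHLDA1 (209 to 229 CPM) lie above all untreated points, and those of the other genes overlap with them.

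The libraries held effective totals of 26336942 to 31780392 reads, and values are given in CPM. The replicate 1 libraries of both groups stood apart from the other 4 over the whole table, so values are also given within each replicate number. For 55.5% of the genes tested, both replicate 1 libraries lay outside the range of the other 4. The same held for 5 of the 10 genes here, a share near that background: DUSP6, SPRY2, SPRED1 and SPRED2 (4 of 10, against 28.3% of genes) were below the other libraries and DUSP7 was above them. CDKN1A, the p53 target that encodes p21, had 217, 573 and 472 CPM in pre-dose libraries of replicates 1, 2 and 3, against 162, 229 and 233 CPM in untreated libraries. Within the pairs of same-numbered libraries CDKN1A differed by 0.42, 1.32 and 1.02 (log2), least in replicate 1.

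The line was checked against marker genes. Of 12 retinal pigment epithelium markers, BEST1, MITF and OTX2 (3) had values, with a summed level of 66.9 to 73.5 CPM in pre-dose and 65.4 to 69.3 CPM in untreated libraries; RPE65 and RLBP1, defining genes of the mature tissue, were not among the rows analysed here. Of 4 keratins, KRT8, KRT18 and KRT7 (3) had values and KRT19 had none. The keratins with values summed to 1312 to 1353 CPM in pre-dose and 1323 to 1457 CPM in untreated libraries. Among them KRT18 was lower in pre-dose libraries without overlap, at 413 to 428 CPM against 431 to 461 CPM in untreated libraries. It passed in replicates 2 and 3 alone (adjusted p = 0.0198 in limma) and in the authors' deposited table (adjusted p = 0.0420), but not over the 6 libraries. Of 6 blood markers 1 had values, HBB, at 13.7 to 16.1 CPM in pre-dose and 17.2 to 19.0 CPM in untreated libraries, without overlap. Pre-dose libraries lay below untreated ones without overlap, as for KRT18 and HBB, in 435 of the 13616 genes tested. Of 5 neuron markers 3 had values, SNAP25, SYT1 and GAD1. They summed to 26.0 to 34.1 CPM in pre-dose and 22.2 to 29.3 CPM in untreated libraries. All 3 were higher in the pre-dose library of each pair, as were 15.6% of the genes tested, and 0 passed over the 6 libraries. SNAP25, at 0.967 to 1.61 CPM, and GAD1, at 1.91 to 2.93 CPM, were low. Of 3 endothelial markers 0 had values. Their part in the results below was not tested. In bulk RNA, a change in the share of cells that express a gene and a change in RNA per cell cannot be told apart.

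The feedback genes differed widely in level. Per kilobase of annotated exon, averaged over the 6 libraries, PHLDA1 (25.4 ± 2.62 CPM per kb, SD, n = 6) and DUSP1 (22.5 ± 1.83) were highest. SPRED2 (8.65 ± 0.546), DUSP5 (8.03 ± 0.624), DUSP7 (7.09 ± 0.872), SPRY2 (5.80 ± 0.764) and DUSP4 (5.13 ± 0.573) followed. SPRED1 (3.59 ± 0.199), DUSP6 (2.18 ± 0.360) and SPRY4 (1.04 ± 0.0961) were lowest. PHLDA1 and DUSP1 overlapped in their ranges over the 6 libraries, as did each neighbouring pair in the run from SPRED2 to DUSP4. The ranges did not overlap between DUSP1 and SPRED2, DUSP4 and SPRED1, SPRED1 and DUSP6, or DUSP6 and SPRY4. DUSP6 and SPRY4, classical ERK-induced feedback genes, were the least abundant of the set in this line. These levels divide by the length of all annotated exons, so a gene that uses only some of its exons is understated.

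**Figure D2:**
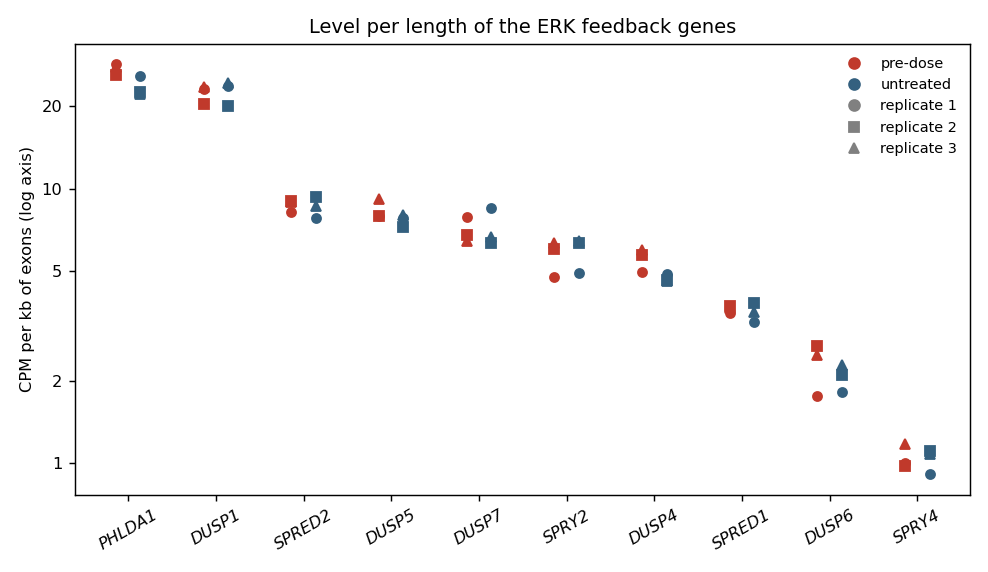
CPM per kb of annotated exon (log axis) for the 10 genes, ordered by their mean over 6 libraries; colour gives the group and symbol the replicate number. PHLDA1 and DUSP1 lie between 20.0 and 28.3 CPM per kb, and SPRY4 between 0.912 and 1.17.

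DUSP1, DUSP4 and DUSP5 encode nuclear phosphatases that are induced by mitogens and stress. DUSP1, which acts on p38, JNK and ERK, lies on chromosome 5 (172768090 to 172771195, GRCh38). It had 46.7, 41.0 and 47.4 CPM in pre-dose libraries of replicates 1, 2 and 3, against 47.8, 40.3 and 48.8 CPM in untreated libraries. The groups overlapped, and in both of them replicate 2 was the lowest. Its log2 difference was -0.017 ± 0.096 (SE), with a 95% interval of -0.24 to 0.21.

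DUSP4, which acts on ERK and JNK, lies on chromosome 8 (29333064 to 29350668). It had 36.1, 41.7 and 43.2 CPM in pre-dose libraries, against 35.4, 33.7 and 33.4 CPM in untreated libraries. All 3 pre-dose values were above all 3 untreated ones, but the replicate 1 pair was nearly level, with a log2 difference of 0.026, where replicates 2 and 3 gave 0.30 and 0.36. Over the 6 libraries it was 0.23 ± 0.082 (SE), with an interval of 0.036 to 0.42, an unadjusted p of 0.0260 and an adjusted p of 1.00 in limma. In replicates 2 and 3 alone, 2 libraries per group without the nearly level pair, DUSP4 differed by 0.33 ± 0.050 (SE, adjusted p = 0.00405 in limma). The authors' deposited table gave a difference of 0.34 (0.24 to 0.45) with an adjusted p of 0.0254, at rank 22 by p of 13696 genes. CDKN1A likewise had its smallest difference in the replicate 1 pair, and its part in the DUSP4 values was not tested.

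DUSP5, a phosphatase specific for ERK that also anchors it in the nucleus, lies on chromosome 10 (110497838 to 110511544). It had 20.7, 20.8 and 24.0 CPM in pre-dose libraries, against 20.5, 19.0 and 20.9 CPM in untreated libraries. Pre-dose replicate 3 was above the other libraries, and pre-dose replicates 1 and 2 fell within the untreated range. Within pairs the pre-dose library was higher by 0.014, 0.12 and 0.19 on the log2 scale. The overall difference was 0.11 ± 0.084 (SE), with an interval of -0.088 to 0.31 and an unadjusted p of 0.235 in limma. Without pre-dose replicate 3 it was 0.042, and without untreated replicate 2 it was 0.069. In the authors' deposited table it was 0.20 with an unadjusted p of 0.0177 and an adjusted p of 0.130.

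DUSP6 and DUSP7 encode cytoplasmic phosphatases selective for ERK. DUSP6 (chromosome 12, 89347232 to 89353271) had 8.17, 12.4 and 11.5 CPM in pre-dose libraries, against 8.44, 9.68 and 10.5 CPM in untreated libraries. Both replicate 1 libraries were the lowest, and in replicates 2 and 3 the pre-dose libraries were above both untreated ones. By pair, the log2 difference came to -0.041, 0.32 and 0.11. It was 0.13 ± 0.16 (SE; -0.23 to 0.50) over the 6 libraries, and 0.22 ± 0.087 (SE) in replicates 2 and 3 alone, where it did not pass (unadjusted p = 0.0288, adjusted p = 0.177 in limma). DUSP6 had the widest spread within groups of the 10 genes, an SD of 0.23 on the log2 scale, at 248 to 372 reads per library. An antisense gene, AC024909.2, overlaps 1875 of its annotated exonic bases and has no row of its own in the deposited table. The strand setting of the counting is not given in the sources used here, so reads of DUSP6 and AC024909.2 cannot be told apart.

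DUSP7 (chromosome 3, 52048919 to 52056550) had 44.5, 38.1 and 36.5 CPM in pre-dose libraries, against 47.9, 35.9 and 37.5 CPM in untreated libraries. It ran opposite to DUSP6 over the replicate numbers: both replicate 1 libraries were the highest, by 0.31 on the log2 scale relative to the other 4, and the same quantity was -0.36 for DUSP6. Its difference between the groups was -0.019 ± 0.13 (SE), with an interval of -0.31 to 0.27.

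SPRY2 and SPRY4 encode Sprouty proteins, which dampen signals from receptor tyrosine kinases. SPRY2 (chromosome 13, 80335976 to 80340951) had 14.5, 18.3 and 19.2 CPM in pre-dose libraries, against 14.9, 19.2 and 19.7 CPM in untreated libraries. It was lower in the pre-dose library of each pair, with log2 differences of -0.042, -0.069 and -0.030. The replicate 1 libraries were the lowest, with a log2 difference of -0.36 to the other 4. The difference between groups was -0.047 ± 0.14 (SE; -0.38 to 0.28).

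SPRY4 (chromosome 5, 142310427 to 142326455) had 6.56, 6.42 and 7.71 CPM in pre-dose libraries, against 5.99, 7.27 and 7.10 CPM in untreated libraries. Its pairs differed in sign, 0.11, -0.16 and 0.10, and the overall difference was 0.020 ± 0.11 (SE; -0.23 to 0.28). At 176 to 231 reads per library it was the least counted gene of the set, and counting alone gives a coefficient of variation of 7.54% at its lowest count.

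SPRED1 and SPRED2 encode the SPRED proteins that recruit neurofibromin, and SPRED1 had the smallest spread within groups of the 10 genes, an SD of 0.084 on the log2 scale. SPRED1 (chromosome 15, 38252326 to 38357249) had 29.1, 30.8 and 30.3 CPM in pre-dose libraries, against 26.9, 31.6 and 29.3 CPM in untreated libraries. SPRED2 (chromosome 2, 65310851 to 65432637) had 42.3, 46.4 and 45.9 CPM in pre-dose libraries, against 40.3, 48.0 and 44.5 CPM in untreated libraries. In both genes the untreated libraries of replicates 1 and 2 were the lowest and the highest of the 6, with the 3 pre-dose libraries between them. The differences were 0.040 ± 0.077 (SE; -0.14 to 0.22) for SPRED1 and 0.022 ± 0.081 (SE; -0.17 to 0.21) for SPRED2.

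Promoter windows of RefSeq (GRCh38.p14) were matched for 8 of the 10 genes, taking the first window of each symbol and its 250 bases before the start that RefSeq gives. That start is not always the outer end of the GENCODE 29 gene: annotated exons cover all 250 bases in DUSP6, SPRED1 and PHLDA1, 170 in SPRY4 and 38 in SPRED2, so these windows are not sequence upstream of every annotated start. The RefSeq starts of SPRY2 and DUSP7 lie outside their GENCODE 29 genes. Motifs were searched on both strands. The core of the cAMP response element, TGACG, was found in DUSP1, SPRY2 and SPRY4 (3 of 8), against 21.7% of all 27305 promoters and 30.4% of the promoters of genes in the table. The ETS site CCGGAAG (16.4% of those promoters), the AP-1 site TGANTCA (3.8%) and the CArG box of serum response factor (1.0%) were matched in 0 of 8 windows, which says only that these letters are not in them. The DUSP1 window (minus strand, chr5:172771196-172771445) and the SPRY2 window (minus strand, chr13:80341127-80341376) are shown because they hold this core and lie outside annotated exons; capitals mark it on either strand.
DUSP1: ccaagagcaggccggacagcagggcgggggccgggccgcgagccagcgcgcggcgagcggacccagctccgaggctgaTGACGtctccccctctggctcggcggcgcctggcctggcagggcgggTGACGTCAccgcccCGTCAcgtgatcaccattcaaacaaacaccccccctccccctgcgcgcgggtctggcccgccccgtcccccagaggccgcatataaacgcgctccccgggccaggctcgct
SPRY2: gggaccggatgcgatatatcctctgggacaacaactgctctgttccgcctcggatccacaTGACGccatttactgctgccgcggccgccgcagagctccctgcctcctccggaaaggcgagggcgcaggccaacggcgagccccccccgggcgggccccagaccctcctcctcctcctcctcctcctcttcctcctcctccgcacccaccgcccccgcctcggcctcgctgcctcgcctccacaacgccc

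The DUSP1 window held 4 copies of the core. A pair of them, at 125 to 121 and 122 to 118 bases before the RefSeq start, overlap as the palindrome of the full element. Both genes overlapped between pre-dose and untreated libraries, as given above. A match of letters is a description of the window and not a bound site.

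PHLDA1 was the most abundant of the set, at 4772 to 7262 reads per library, and lies on chromosome 12 (76025447 to 76033932). It had 229, 209 and 224 CPM in pre-dose libraries, against 208, 181 and 178 CPM in untreated libraries. Every pre-dose library was above every untreated one, though pre-dose replicate 2 exceeded untreated replicate 1 only narrowly. The pair differences were 0.14, 0.20 and 0.33 on the log2 scale, so PHLDA1 kept its direction in replicate 1 where DUSP4 was nearly level. Over the 6 libraries the difference was 0.22 ± 0.076 (SE; 0.045 to 0.40), with an unadjusted p of 0.0208 and an adjusted p of 1.00 in limma. In replicates 2 and 3 alone, 2 libraries per group, PHLDA1 differed by 0.27 ± 0.040 (SE, adjusted p = 0.00353 in limma). The authors' deposited table gave 0.29 (0.20 to 0.39) with an adjusted p of 0.0254, at rank 28 by p. An antisense gene, AC011611.3, shares 553 exonic bases with PHLDA1 and had 8.31, 6.87 and 8.11 CPM in pre-dose libraries, against 9.40, 6.69 and 7.93 CPM in untreated libraries, a log2 difference of -0.033. A second one, AC011611.4, shares 779 exonic bases and has no row of its own in the deposited table. As for DUSP6, reads of the strands cannot be told apart.

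**Figure D3:**
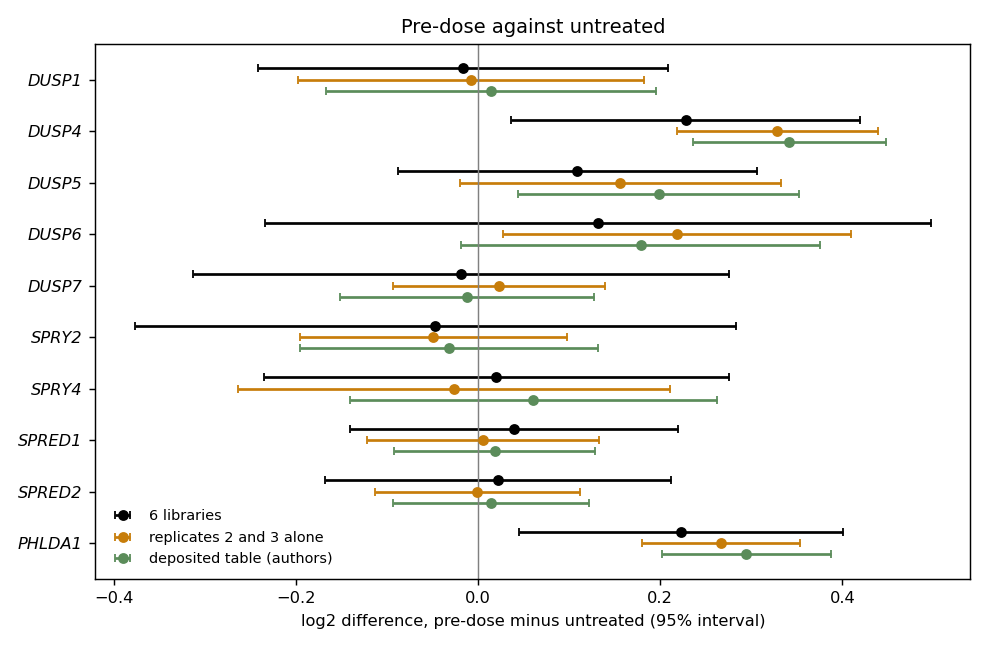
Log2 difference, pre-dose minus untreated, with its 95% interval, from the fit of 6 libraries, from replicates 2 and 3 alone and from the authors' deposited table. The intervals of DUSP4 and PHLDA1 lie above 0 in all 3, unadjusted for the number of genes; those of DUSP1, DUSP7, SPRY2, SPRY4, SPRED1 and SPRED2 include 0 in all 3.

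Read by same-numbered pair, DUSP4, DUSP5 and PHLDA1 were higher in the pre-dose library of all 3 pairs (3 of 10, against 15.6% of the genes tested). SPRY2 was lower in all 3 (1 of 10, against 16.3%, a share no higher than that background). The pairing is inferred, and correlations between libraries favour exchanging replicates 2 and 3. DUSP5 and SPRY2 would then not keep their sign in all 3 pairs. DUSP5 had 20.80 CPM in pre-dose replicate 2 and 20.94 CPM in untreated replicate 3. SPRY2 had 19.23 CPM in pre-dose replicate 3 and 19.19 CPM in untreated replicate 2. The groups did not overlap, with pre-dose above, for 2 of 10 genes against 3.36% of the genes tested. The median difference of the 10 genes was 0.031 on the log2 scale, against -0.0013 over all genes tested. Its value within pairs was 0.020, 0.054 and 0.075 for replicates 1, 2 and 3. The members were chosen with results of these data known, so these shares are a description.

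**Figure D4:**
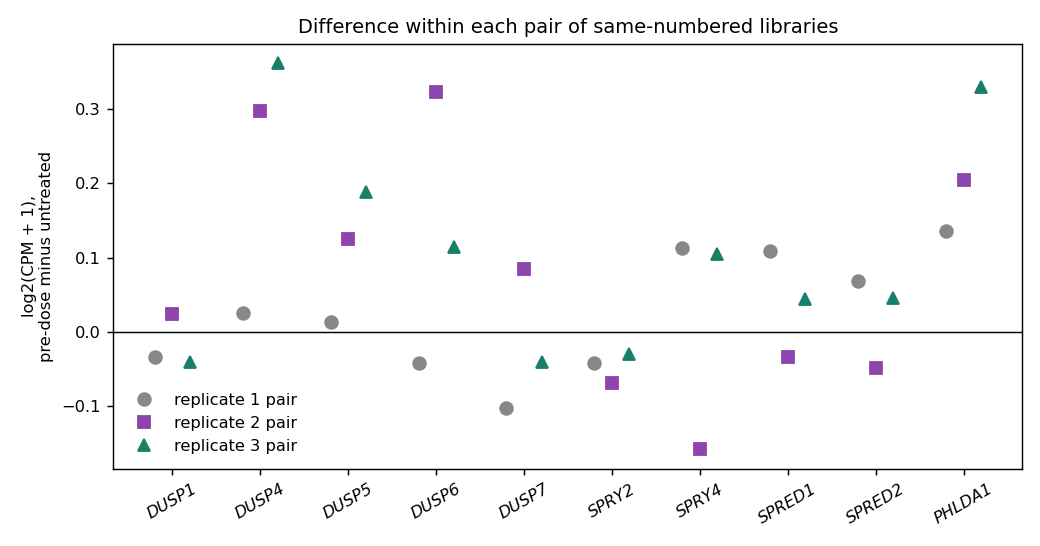
Pre-dose minus untreated difference of log2(CPM + 1) within each pair of same-numbered libraries. The pairing by number is inferred, and the signs of DUSP5 and SPRY2 depend on it. DUSP4 (0.026, 0.30 and 0.36), DUSP5 (0.014, 0.12 and 0.19) and PHLDA1 (0.14, 0.20 and 0.33) lie above 0 in the 3 pairs, and SPRY2 lies below 0 in the 3 pairs.

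Other genes of the ERK pathway were read from a list of 84 symbols, of which 72 were tested. In limma 0 of 72 passed over the 6 libraries, and their median difference was -0.0027. At an unadjusted p of 0.05, 2 of 72 passed (TGFA and PHLDA3), near the 2.06% of all genes. In replicates 2 and 3 alone 8 of 72 passed, 6 higher and 2 lower, where 6.36% of all genes passed (2.89% as higher). Of the 72, 3 passed in the authors' deposited table (TGFA, EGFR and PHLDA3), all higher, where 3.05% of all genes passed (1.61% as higher). PHLDA3 is on the list as a relative of PHLDA1 and is not known as an ERK target. The genes named next are core genes of the pathway and, on each side, the 4 of lowest unadjusted p; none of them passed in the fit of 6 libraries.

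Among ligands and receptors, TGFA, a ligand of the EGF receptor, had 3.32, 4.29 and 4.31 CPM in pre-dose libraries, against 2.80, 2.26 and 2.98 CPM in untreated libraries. Its groups did not overlap, with pre-dose above, as for 3.36% of the genes tested. Its difference was 0.43 ± 0.13 (SE; unadjusted p = 0.0117, adjusted p = 1.00 in limma). EGFR, the receptor itself, had 246, 252 and 267 CPM in pre-dose libraries, against 258, 227 and 230 CPM in untreated libraries, with pre-dose lower in the replicate 1 pair and higher in both others. Over the 6 libraries EGFR differed by 0.098 ± 0.069 (SE, unadjusted p = 0.196 in limma). In replicates 2 and 3 alone TGFA differed by 0.56 and EGFR by 0.18 (adjusted p = 0.0367 and 0.0167 in limma). Both passed in the authors' deposited table (adjusted p = 0.0378 and 0.0388).

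Of the 14 genes of the kinase cascade tested, 0 passed over the 6 libraries, and their median log2 difference was 0.0065. MAPK3, which encodes ERK1, differed by -0.0010 ± 0.067 (SE), and BRAF by 0.045 ± 0.13 (SE). MAP2K1, which encodes MEK1, had 66.7, 63.4 and 65.5 CPM in pre-dose libraries, against 67.5, 70.4 and 71.0 CPM in untreated libraries. It was lower without overlap, as were 435 of the 13616 genes tested, but not past the threshold (unadjusted p = 0.135 in limma). RPS6KA2, an ERK-activated kinase, differed by 0.096 ± 0.071 (SE) over 6 libraries and rose by 0.15 in replicates 2 and 3 alone (adjusted p = 0.0185 in limma). Its replicate 1 pair gave -0.021, and it did not pass in the authors' deposited table (adjusted p = 0.0688).

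Of 10 other genes that active ERK induces, 0 passed over the 6 libraries, and their median log2 difference was -0.11. By pair the median was 0.0039, -0.19 and -0.11 for replicates 1, 2 and 3, and 5 of 10 were higher in the replicate 1 pair. The median of the values in the authors' deposited table was -0.047. ETV5, an ETS factor, had 33.3, 31.5 and 32.1 CPM in pre-dose libraries, against 32.0, 37.8 and 36.1 CPM in untreated libraries. FOSL1, which encodes the AP-1 subunit FRA1, had 346, 183 and 206 CPM in pre-dose libraries, against 326, 224 and 231 CPM in untreated libraries. Over the 6 libraries ETV5 differed by -0.12 ± 0.078 (SE) and FOSL1 by -0.12 ± 0.25 (SE). Both were higher in the pre-dose library of the replicate 1 pair, by 0.057 and 0.084. In replicates 2 and 3 alone they differed by -0.21 and -0.23 (adjusted p = 0.0408 and 0.0231 in limma). Neither passed in the authors' deposited table (adjusted p = 0.0608 and 0.329). EGR1, an immediate early factor, followed the replicate numbers, with 4.83, 7.97 and 27.2 CPM in pre-dose libraries and 4.77, 9.97 and 32.7 CPM in untreated libraries. ETV4 differed by -0.092 ± 0.14 (SE), and CCND1, which encodes cyclin D1, by 0.034 ± 0.065 (SE).

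Of 12 relatives and other feedback genes tested, 0 passed in limma over the 6 libraries, and their median log2 difference was -0.043. Those named next are among the pathway genes of smallest unadjusted p on each side. Their mix of signs follows from that choice. PHLDA3, which is known as a p53 target and an AKT inhibitor and not as an ERK target, had 95.4, 105 and 102 CPM in pre-dose libraries, against 86.6, 76.7 and 78.4 CPM in untreated libraries. It differed by 0.32 ± 0.070 (SE; unadjusted p = 0.00230, adjusted p = 1.00 in limma) and stood at rank 2 in the authors' deposited table (adjusted p = 0.0137). PHLDA2 had 59.1, 49.7 and 51.4 CPM in pre-dose libraries, against 66.6, 56.1 and 57.1 CPM in untreated libraries, and differed by -0.17, -0.17 and -0.15 in the 3 pairs. DUSP8, a phosphatase of JNK and p38, had 8.53, 8.69 and 7.34 CPM in pre-dose libraries, against 10.2, 8.18 and 9.31 CPM in untreated libraries, a difference of -0.15 ± 0.11 (SE).

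**Figure D5:**
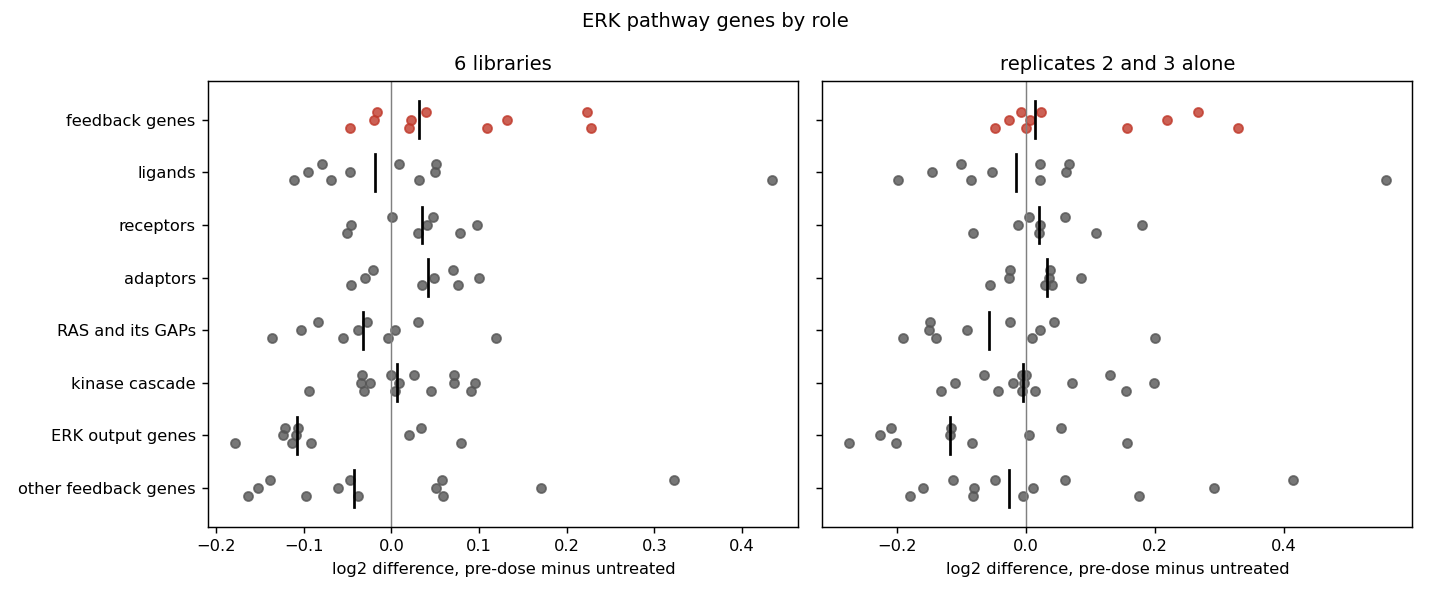
Log2 difference, pre-dose minus untreated, of the 10 feedback genes and the 72 other pathway genes by role, over 6 libraries (left) and in replicates 2 and 3 alone (right); black bars are medians. Over 6 libraries the medians were 0.031 for the feedback genes and -0.11 for the ERK output genes, whose median was 0.0039 in the replicate 1 pair.

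The genes with profiles most like those of DUSP6 and SPRY4 were ranked by the root mean square difference of log2(CPM + 1) profiles, each centred on its own mean over the 6 libraries. For DUSP6, whose own profile had a root mean square of 0.20, they were BBS2 (0.022), TEP1 (0.025) and MMP19 (0.028). Both replicate 1 libraries were the lowest in all 3, which follows from choosing these genes by likeness to DUSP6. The same held for 28.3% of the genes tested. For SPRY4, with 0.11, the most similar genes were OSCP1 (0.021), METTL14 (0.022) and IFT57 (0.025).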

How the data were processed

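Poly-A RNA of 3 pre-dose and 3 untreated libraries was sequenced as paired reads, per the labels' protocols. Per the submitters' processing notes, the build is hg38 and the tools are limma, edgeR, DRAGEN and bcl2fastq, with no roles given; for the counting step, strand setting and gene filter no source used here gives details. The authors deposited 1 table of log2 values in CPM. It also holds their own comparison, with log2 fold changes and limits, raw p-values, adjusted p-values and score columns (t and B), per the file headers. By comparison with the sample columns, the deposited fold change is untreated minus pre-dose, and it was turned here. No source used here gives the authors' model.

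Of 13773 rows, 77 repeated an identifier and were dropped. Effective totals were read from the lowest value of each library, assumed to be a count of 0 plus a prior of 0.5 reads, so they and the read counts derived from them are estimates. As planned for log2 CPM values, limma-trend (limma 3.58.1, R 4.3.3) was fitted to log2(CPM + 1) for 13616 genes averaging 1 CPM or more, with Benjamini-Hochberg adjustment over all of them and a threshold of 0.05. The fit was run on simulated data with independent noise per library, which lack the shared replicate 1 shift seen here. That run checked only that planted differences were recovered on average. Figures were drawn with matplotlib 3.10.9. Positions and exon lengths came from GENCODE 29 on GRCh38.

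The members and lists were chosen with earlier results of these data known. Named whatever their result were the members, CDKN1A and the core genes EGFR, BRAF, MAP2K1, MAPK3, FOSL1, EGR1, ETV4, ETV5 and CCND1; a further core gene is not reported here. Of the pathway list the 4 genes with the smallest p in each direction were named too, and for DUSP6 and SPRY4 the 3 genes with the most similar profiles. Deviations of same-numbered libraries from their group means correlated across genes at 0.66, 0.45 and 0.18 for replicates 1, 2 and 3. Same-numbered libraries were treated as pairs, an inference that the labels do not state. The correlations favour this matching for replicate 1 only. Pre-dose replicate 2 correlated more with untreated replicate 3 (0.51), and pre-dose replicate 3 more with untreated replicate 2 (0.28). Alternatives were other pseudocounts, filters and scalings, a replicate block, library weights, replicates 2 and 3 alone, the replicate 1 pair, and leaving out each library. Replicates 2 and 3 alone leave 2 libraries per group. That replicate 1 stands apart was already known from earlier results of these data.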

Additional observations from a re-analysis of the deposited data

How the results depend on the processing

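Of the 10 genes, 0 passed in limma under other pseudocounts, filters and scalings, with the replicate block (smallest adjusted p 0.235) or without any 1 library; at an unadjusted p of 0.05, 0 to 3 passed as each library was left out. The replicate block changed no call: 0 of all genes passed, with 1443 at an unadjusted p of 0.05, against 280 without it. Library weights (limma's gene-by-gene method, chosen after seeing that the default did not converge) gave 2 members, 2 pathway genes and 189 genes in all. Replicates 2 and 3 alone gave 2 members, 8 pathway genes and 866 genes in all. The members called in both were DUSP4 and PHLDA1. Both fits give the replicate 1 libraries little or no weight, so they are not separate support. Small differences turned sign. Library weights gave 0.022 for DUSP1 and 0.0038 for DUSP7. Replicates 2 and 3 alone gave 0.022 for DUSP7, -0.026 for SPRY4 and -0.0010 for SPRED2, and the replicate 1 pair gave -0.041 for DUSP6. Leaving out each library gave -0.10 to 0.048 for DUSP1, -0.10 to 0.11 for DUSP7, -0.17 to 0.071 for SPRY2, -0.056 to 0.066 for SPRY4, -0.017 to 0.094 for SPRED1 and -0.042 to 0.081 for SPRED2. It gave 0.18 to 0.30 for DUSP4, 0.18 to 0.29 for PHLDA1, 0.042 to 0.14 for DUSP5 and 0.025 to 0.30 for DUSP6. The cause was not tested. At the lowest read count, counting alone gives a coefficient of variation of 7.54% for SPRY4 and 6.35% for DUSP6, the least counted members.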
